A study of Mus musculus with 112 samples.

Results

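Mitochondrial ribosome proteins are described here in epididymal white adipose tissue (WAT) of mice on caloric restriction (CR) and on a control diet. The genes were taken by name, as every gene whose symbol is Mrpl or Mrps followed by a digit, with the brightest probe set used where a gene had several. This gave 77 of the 19938 genes on the array, of which 50 encode proteins of the large subunit and 26 encode proteins of the small subunit. Mrps18a and Mrps30 carry small-subunit names but sit in the large subunit and were counted there, and Mrps36 encodes a component of the oxoglutarate dehydrogenase complex and was counted in neither subunit. The rule uses names only, with measured brightness deciding between probe sets of 1 gene, and 1 further probe set, shared by Ccdc142 and Mrpl53, was not used because it could not be assigned to 1 gene.

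RNA of 112 male mice, 1 mouse per Affymetrix Mouse Gene 1.0 ST array, was measured in 7 strains with 8 CR and 8 control mice each. The strains were 129S1/SvImJ, BALB/cJ, C57BL/6J, C3H/HeJ, CBA/J, DBA/2J and the hybrid of C57BL/6 and C3H, B6C3F1/J (the labels write Balbc/J and C57BL6/J). All mice were housed singly, ate a purified AIN93M-based diet, were assigned to CR or kept on the control diet at 8 weeks of age, and gave tissue after an overnight fast at 22 weeks. In the study's methods the CR allotment of 129S1/SvImJ and C57BL/6J mice was lowered again part of the way through, on a shared schedule. BALB/cJ mice were given more food than the other strains in both groups, and their CR allotment equalled the control allotment of the other strains. The study reports that BALB/cJ was the only strain whose body weight was not significantly lower on CR. Among B6C3F1/J, DBA/2J, C3H/HeJ and CBA/J mice the allotments of each diet did not differ. Strain and feeding schedule therefore cannot be told apart where strains on different schedules are compared.

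Mitochondria keep their own ribosomes, which read the few messages that the mitochondrial genome encodes, all of them for subunits of the respiratory chain and ATP synthase. The RNA of these ribosomes comes from mitochondrial DNA, whereas every protein in them is encoded in the nucleus, made in the cytosol and imported, so that the supply of both subunits has to be matched across compartments. In adipose tissue mitochondria fuel lipid synthesis and turnover in white adipocytes and heat production in brown and beige adipocytes.

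Promoters of 6 genes on which the results turn are shown first, because the genes of this family moved together and many of them, though not all, hold motifs that the choice by name did not use. Each run is 300 bases, from 250 before to 50 after an annotated start, from RefSeq on build GRCm38.p6. It reads 5′ to 3′ on the gene's own strand, and capitals mark matches to the motifs named below. Mrps22 (a small-subunit protein with no bacterial counterpart) had the largest change, and its window is chr9:98601630-98601929, minus strand. Mrpl48 (chr7:100608252-100608551, minus strand, 1 of 4 windows listed) and Mrps15 (chr4:126046678-126046977, plus strand) met an unadjusted p under 0.01 in every strain. Mrps6 (chr16:92058086-92058385, plus strand) differed most between strains in its response, Mrpl35 (chr6:71823735-71824034, minus strand) differed most between strains on the control diet, and Mrps16 (chr14:20393441-20393740, minus strand, 1 of 2 windows listed) changed least. Where a gene had several windows, the one with the most motif matches is shown, or the first listed where windows tied. For Mrpl48 this left out a window with an ETS match, for which the gene is counted below. Mrpl48 also overlaps Rab6a in RefSeq, so its windows may hold sequence of that gene.
Mrps22: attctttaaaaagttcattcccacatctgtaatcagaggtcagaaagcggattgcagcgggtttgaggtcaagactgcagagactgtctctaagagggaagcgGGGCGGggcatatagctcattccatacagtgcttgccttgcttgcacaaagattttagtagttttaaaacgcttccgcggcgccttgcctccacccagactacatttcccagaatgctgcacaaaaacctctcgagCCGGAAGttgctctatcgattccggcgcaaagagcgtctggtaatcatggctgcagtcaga
Mrpl48: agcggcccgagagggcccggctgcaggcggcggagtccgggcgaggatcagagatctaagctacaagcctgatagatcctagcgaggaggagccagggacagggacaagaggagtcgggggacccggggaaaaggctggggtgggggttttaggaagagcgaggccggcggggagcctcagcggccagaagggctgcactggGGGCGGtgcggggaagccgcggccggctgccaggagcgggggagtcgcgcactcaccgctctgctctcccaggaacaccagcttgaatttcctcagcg
Mrps15: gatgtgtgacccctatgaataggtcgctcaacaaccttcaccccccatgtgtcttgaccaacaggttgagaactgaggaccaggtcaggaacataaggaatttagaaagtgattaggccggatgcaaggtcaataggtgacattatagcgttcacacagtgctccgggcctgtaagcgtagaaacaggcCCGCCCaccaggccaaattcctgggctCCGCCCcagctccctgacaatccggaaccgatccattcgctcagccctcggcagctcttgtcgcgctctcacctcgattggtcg
Mrps6: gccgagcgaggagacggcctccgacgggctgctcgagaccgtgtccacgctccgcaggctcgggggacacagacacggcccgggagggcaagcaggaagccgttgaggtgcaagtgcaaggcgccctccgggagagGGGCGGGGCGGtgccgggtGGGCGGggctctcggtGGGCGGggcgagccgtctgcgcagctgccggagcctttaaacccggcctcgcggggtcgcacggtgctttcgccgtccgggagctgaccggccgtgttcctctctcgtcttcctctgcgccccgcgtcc
Mrpl35: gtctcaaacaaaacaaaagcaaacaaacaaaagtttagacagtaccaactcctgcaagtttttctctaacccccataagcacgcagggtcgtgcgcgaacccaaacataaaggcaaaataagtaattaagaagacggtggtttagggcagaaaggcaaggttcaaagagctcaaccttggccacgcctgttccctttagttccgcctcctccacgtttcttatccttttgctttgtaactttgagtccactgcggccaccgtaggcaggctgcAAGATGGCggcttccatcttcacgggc
Mrps16: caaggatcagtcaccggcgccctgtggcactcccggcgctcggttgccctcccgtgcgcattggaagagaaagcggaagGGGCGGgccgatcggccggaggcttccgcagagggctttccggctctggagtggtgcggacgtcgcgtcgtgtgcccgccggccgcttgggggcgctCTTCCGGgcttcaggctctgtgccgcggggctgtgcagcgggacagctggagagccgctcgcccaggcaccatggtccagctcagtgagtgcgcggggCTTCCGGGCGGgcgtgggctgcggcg

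The motifs, searched on both strands, were CCGGAAG (bound by ETS factors such as GABP), AAGATGGC (YY1), GCATGCGC (nuclear respiratory factor 1, NRF1), and GGGCGG (Sp factors). A promoter window was found for 68 of the 77 genes. The ETS letters were present in 36.8% of these genes and in 9.93% of the 27025 genes with a window. The YY1 letters were present in 17.6% of the family and 3.19% of all genes, the NRF1 letters in 11.8% and 3.05%, and the Sp letters in 50% and 38.2%. At least 1 of the ETS, YY1 and NRF1 motifs occurred in 54.4% of the family and 14.9% of all genes. The 27025 genes were not limited to those on the array, nor matched to the family in signal or base content. In the runs above, the Mrps22 window holds an ETS match that begins 11 bases before the start and an Sp match, the Mrpl35 window a YY1 match just after the start, and the Mrps6 window 4 Sp matches, the first 2 of which overlap by 1 base. The Mrps16 window, from the gene that changed least, holds 2 ETS and 2 Sp matches, and 1 of each overlap in the run CTTCCGGGCGG near its end. The median change on CR was 0.24 in genes with the ETS letters and 0.24 in genes without them. It was 0.28 with and 0.24 without the YY1 letters, 0.24 with and 0.25 without the NRF1 letters, and 0.27 with and 0.22 without the Sp letters (log2, over strains). Mrpl12 and Mrpl50, among the genes with the largest changes, held none of the motifs. A match describes letters in a window and is not evidence of a binding site, and these medians were not tested.

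The values are log2 signals, whose array medians lay between 6.72 and 6.86. Adipocyte markers such as Adipoq, Fabp4 and Plin1 averaged 12.19 in CR mice and 12.19 in control mice over 10 genes. Their members moved both ways across strains, with Slc2a4 (0.92) and Cebpa (0.10) higher and Lep (-0.51), Cidec (-0.20) and Adipoq (-0.17) lower in CR mice. Markers of other cells also moved with diet. Of 16 macrophage genes 15 were lower in CR mice (list mean 8.56 in CR and 9.42 in control mice). Of 7 brown adipocyte genes 5 were higher (8.25 in CR and 7.55 in control mice), and of 8 fibroblast genes 6 were lower. Of 7 endothelial genes 3 were lower, with a median change of -0.003 for the list. Over strains 22% of all genes were lower and 21.9% higher. In bulk tissue, fewer cells of a type and less RNA per cell cannot be told apart. The mean brown adipocyte signal lay more than 1 log2 unit above the median of the group on 3 arrays: BALB/cJ control mouse 3 (1.93 above), DBA/2J control mouse 2 (2.50 above) and BALB/cJ CR mouse 3 (1.01 above). Each of these 3 arrays also had the highest large-subunit mean of its group. In that order the means were 8.95, against 8.52 in the next mouse, 8.64 against 8.55, and 8.93 against 8.90. The 2 signals did not go together in every group. DBA/2J CR mouse 3 had the highest brown adipocyte signal of its group (9.11) and the lowest large-subunit mean (8.39). C57BL/6J control mouse 2 had the highest brown adipocyte signal of its group (7.08). Its large-subunit mean was 8.28, below the group median of 8.29. Epididymis markers, from the neighbouring organ, were raised by more than 1 log2 unit over the strain median on 8 arrays, 2 CR arrays each of C57BL/6J, CBA/J and DBA/2J and 2 DBA/2J control arrays. C57BL/6J CR mouse 2 had the highest epididymis signal of all mice, 11.51, and the lowest adipocyte signal, 10.99. In DBA/2J the mean of 8 testis germ cell genes, of which 4 were higher in CR mice over strains, was 6.54 in CR and 5.75 in control mice, and it lay more than 1 log2 unit above the strain median in 2 CR mice.

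To ask whether CR changed the mitochondrial ribosome across strains, the differences between the diets were averaged over the 7 strains and tested with limma in 1 model of all arrays. With a Benjamini-Hochberg adjusted p under 0.05 over all genes, 74 of the 77 genes were higher in CR mice and 0 were lower, whereas 21.9% of all genes were higher and 22% were lower. All 50 large-subunit genes and 23 of 26 small-subunit genes passed. The changes were small and of like size, with a median of 0.24 in log2 for the family, 0.25 for the large subunit and 0.21 for the small subunit, and a median of 0.0076 for all genes. All 77 estimates were above 0, from 0.03 for Mrps16 to 0.69 for Mrps22. The count was also 74 without the 3 arrays of raised brown adipocyte signal, 74 without the 8 arrays of raised epididymis signal and 74 without BALB/cJ control mouse 3. It was also 74 without the 2 CR arrays of raised testis signal. The part of the lower macrophage and higher brown adipocyte signals in the result was otherwise not tested.

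**Figure D1:**
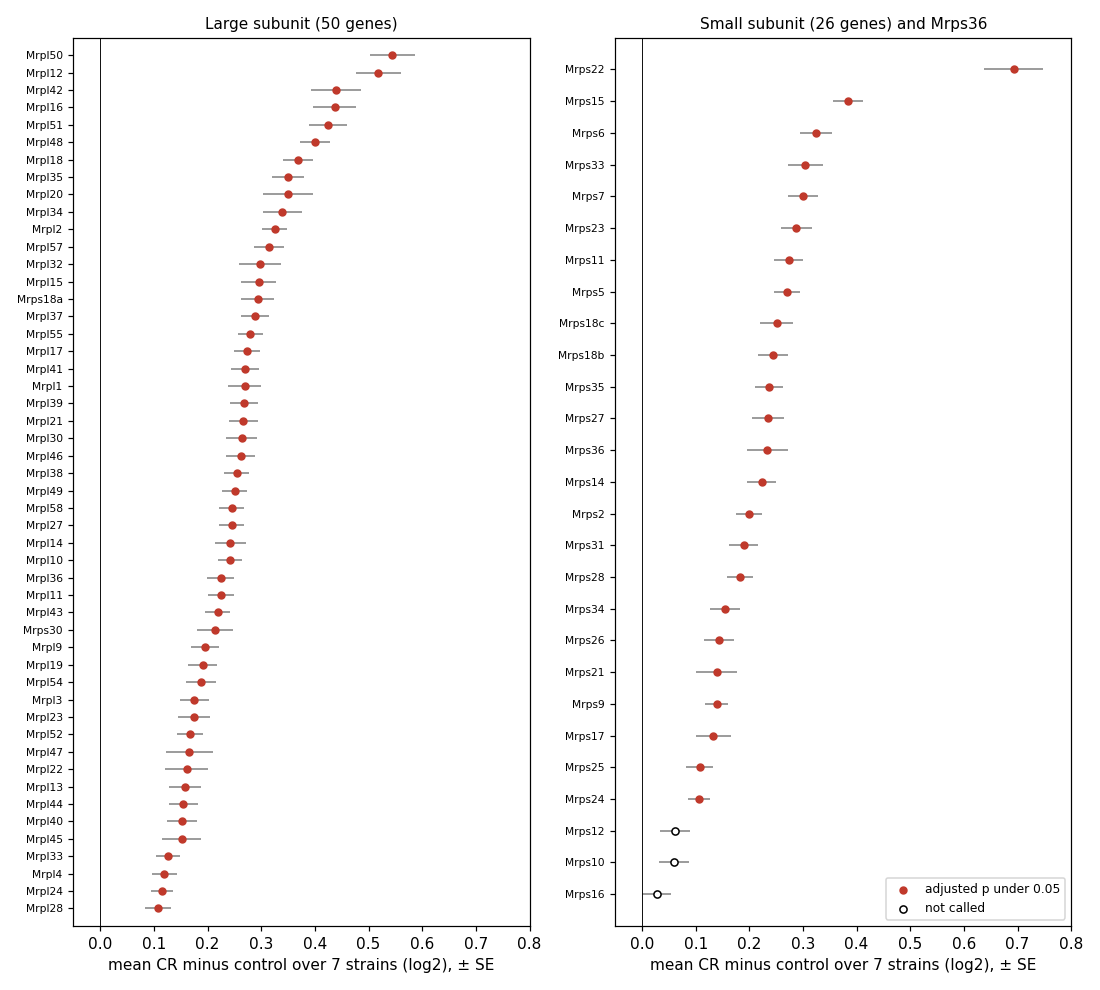
The mean CR minus control difference over 7 strains is plotted for each gene on a log2 axis with its standard error, large subunit at left and small subunit with Mrps36 at right. Filled points passed an adjusted p of 0.05; the 3 open points at the foot of the small subunit, Mrps12, Mrps10 and Mrps16, did not.

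Mrps22, mutated in a human deficiency of the respiratory chain, showed the largest change. Its log2 signal in B6C3F1/J ran from 8.46 through a median of 9.24 to 9.45 in CR mice and from 7.72 through 7.93 to 8.11 in control mice. The lowest CR mouse was thus above the highest control mouse in this strain, by a difference of means of 1.20 ± 0.11 (SE, limma adjusted p = 2.57e-07). In C3H/HeJ the lowest, median and highest values were 8.47, 9.07 and 9.48 in CR mice and 7.93, 8.12 and 8.58 in control mice, in CBA/J 8.35, 9.17 and 9.44 in CR mice and 8.12, 8.31 and 8.61 in control mice. Both of these strains overlapped through 1 low CR mouse, with 7 of 8 CR mice above every control. In 129S1/SvImJ the values were 7.77, 8.53 and 8.89 in CR mice and 7.58, 7.76 and 7.86 in control mice, and in C57BL/6J 7.88, 8.44 and 8.63 in CR mice and 7.53, 7.76 and 7.96 in control mice. The groups overlapped more in DBA/2J (7.92, 8.29 and 8.58 in CR mice, 7.76, 7.91 and 8.25 in control mice) and most in BALB/cJ (7.98, 8.44 and 9.46 in CR mice, 7.70, 8.01 and 9.12 in control mice). Over strains the change was 0.69 ± 0.05 (SE, adjusted p = 1.08e-20), or 1.62-fold, and it was positive in all 7 strains.

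Among large-subunit genes the largest changes were those of Mrpl50, 0.54 ± 0.04 (SE), and Mrpl12, 0.52 ± 0.04. Mrpl12 is the stalk protein through which translation factors reach the ribosome, and it also binds the mitochondrial RNA polymerase. In B6C3F1/J its lowest, median and highest signals were 9.29, 9.67 and 9.81 in CR mice and 8.75, 8.83 and 9.01 in control mice, with no overlap, and in C57BL/6J they were 8.89, 9.32 and 9.60 in CR mice and 8.79, 8.98 and 9.20 in control mice, where 6 of 8 CR mice exceeded every control. Mrpl42, Mrpl16, Mrpl51 and Mrpl48 followed, with changes of 0.44, 0.44, 0.42 and 0.40. Of other large-subunit proteins with a known place in the machine, Mrpl10, which anchors the stalk, changed by 0.24 ± 0.02, and Mrpl11, of the region that stimulates GTP hydrolysis by the factors, by 0.22 ± 0.02. Mrpl3, which lies by the peptidyl transferase centre, changed by 0.18 ± 0.03 and Mrpl44, whose mutation in humans impairs the heart, by 0.15 ± 0.03. Mrpl47 changed by 0.17 ± 0.04 on the probe set used and by 0.06 on its second one. Mrpl58, a protein of the release factor family built into the subunit, changed by 0.24 ± 0.02. Each of these passed the test over strains.

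In the small subunit, Mrps15 (0.38 ± 0.03 SE), Mrps6 (0.32 ± 0.03), Mrps33 (0.30 ± 0.03), Mrps7 (0.30 ± 0.03) and Mrps23 (0.29 ± 0.03) came after Mrps22. Mrps5, whose counterpart in worms lengthens life when knocked down, rose by 0.27 ± 0.02, and Mrps27, a pentatricopeptide repeat protein, rose by 0.24 ± 0.03. The Mrps18 paralogs had changes of like size in both subunits, at 0.29 ± 0.03 for Mrps18a in the large subunit and at 0.24 ± 0.03 for Mrps18b and 0.25 ± 0.03 for Mrps18c in the small subunit. Mrps30 of the large subunit changed by 0.21 ± 0.03 and Mrps36, which belongs to neither, by 0.23 ± 0.04. Split by origin, all 31 large-subunit genes with a bacterial homolog and all 19 without one were higher, and in the small subunit 13 of 16 with a homolog and 10 of 10 without one were higher. This split counted Mrps18a and Mrps18c with a homolog and their paralog Mrps18b without one, so the small-subunit totals depend on that choice. Mrps18b was among the genes that were higher.

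The 3 genes that missed the threshold over strains were small-subunit genes with bacterial homologs. Mrps12, of the decoding centre, changed by 0.06 ± 0.03 (SE, adjusted p = 0.075), Mrps10 by 0.06 ± 0.03 (adjusted p = 0.0867) and Mrps16 by 0.03 ± 0.03 (adjusted p = 0.453). Mrps16, mutated in a human respiratory chain deficiency, overlapped between diets in every strain. Its lowest, median and highest signals were 8.35, 8.53 and 8.74 in CR and 8.49, 8.64 and 8.74 in control C57BL/6J mice, and 8.43, 8.58 and 8.74 in CR and 8.23, 8.43 and 8.67 in control 129S1/SvImJ mice. The estimate was thus negative in C57BL/6J (-0.12 ± 0.06) and positive in 129S1/SvImJ (0.12 ± 0.06), and neither passed the test within the strain. In B6C3F1/J, the strain with the most genes called, Mrps16 ran 8.46, 8.56 and 8.62 in CR mice and 8.36, 8.60 and 8.80 in control mice. In BALB/cJ, CBA/J and DBA/2J, every Mrps16 control numbered 5 to 8 lay above every control numbered 1 to 4. The lowest of the high numbers and highest of the low numbers were 8.55 and 8.38, 8.53 and 8.47, and 8.56 and 8.51. CR mice of these strains and controls of the other strains overlapped between these numbers. The pattern was picked out after its values were seen and was not tested. The calls on Mrps12 and Mrps10 depended on scaling, and both passed as higher when the median of each array was subtracted first.

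Several of these signals may hold more than 1 gene. In RefSeq, 19 of the 77 genes overlap another protein-coding gene, and the positions and strands of the array's probes were not used here, so each of these is uncertain. The partners did not all move alike: Gga3 and Mif4gd, which overlap Mrps7, changed by -0.18 and -0.24, whereas Tmem63b, which overlaps Mrpl14, and Tcp1, which overlaps Mrpl18, changed by 0.26 each. Mrpl23, Mrpl27, Mrpl48, Mrpl51, Mrps33 and Mrps36 have pseudogenes in RefSeq whose RNA could hybridise to the same probes, and they are also uncertain. In the 8 genes with a second probe set, both sets gave a positive change, between 0.06 and 0.51. The second set gave a smaller change for Mrpl41 (0.15, against 0.27 on the set used) and Mrpl47 (0.06 against 0.17). It gave a larger one for Mrpl51 (0.51 against 0.42), and in the other genes the sets lay closer together.

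Within strains the CR groups were compared on the 16 arrays of each strain. At an adjusted p under 0.05, 72 of the 77 genes were higher in CR B6C3F1/J mice (17.8% of all genes), 52 in 129S1/SvImJ (16.8%), 49 in C3H/HeJ (8.75%), 44 in C57BL/6J (9.39%) and 36 in CBA/J (8.68%). In DBA/2J 2 genes were higher (0.492% of all genes) and in BALB/cJ 0 (0% of all genes). None of the 77 genes was lower in any strain at this threshold, where 16.4% of all genes were lower in B6C3F1/J, 15.4% in 129S1/SvImJ, 6.88% in C3H/HeJ, 7.32% in C57BL/6J, 12.5% in CBA/J, 0.396% in DBA/2J and 0% in BALB/cJ. At an unadjusted limma p under 0.01, a threshold that the study's methods apply to another test, on unlogged values, the counts were 72 in B6C3F1/J (16.5% of all genes), 50 in 129S1/SvImJ (14.4%), 52 in C3H/HeJ (9.26%), 45 in C57BL/6J (9.8%), 35 in CBA/J (8.52%), 18 in DBA/2J (3.15%) and 8 in BALB/cJ (0.627%). None of them was lower at that p, where 14.4% of all genes were lower in B6C3F1/J, 14.2% in 129S1/SvImJ, 7.44% in C3H/HeJ, 7.82% in C57BL/6J, 12.3% in CBA/J, 2.88% in DBA/2J and 0.958% in BALB/cJ. An unadjusted p under 0.05, in either direction, was met in BALB/cJ by 30 of the genes, and the share of all genes that met it was not counted. The median change of the family was 0.37 in B6C3F1/J, 0.28 in C57BL/6J, 0.25 in 129S1/SvImJ, 0.25 in C3H/HeJ, 0.21 in CBA/J, 0.17 in BALB/cJ and 0.13 in DBA/2J. The corresponding medians of all genes lay between -0.03 and 0.06.

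**Figure D2:**
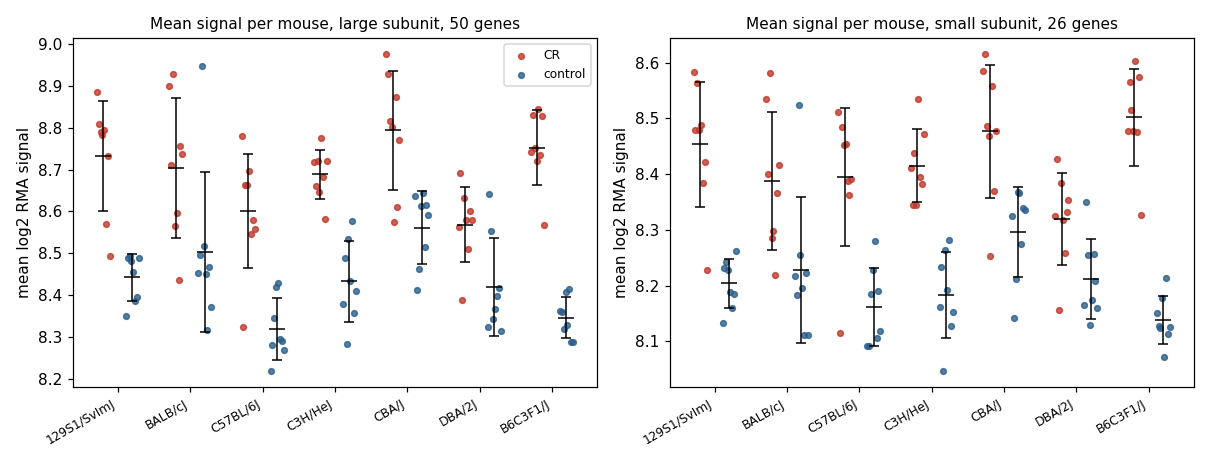
Each point is the mean log2 signal of 1 mouse over the 50 large-subunit genes (left) or the 26 small-subunit genes (right), with the mean and SD of 8 mice per group, CR beside control in each strain. The groups separate fully in C3H/HeJ and B6C3F1/J, and in BALB/cJ a single control mouse at 8.95 and 8.52 lies apart from the other controls.

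Values of single mice were compared as means over the genes of a subunit. The mean of the 50 large-subunit genes in B6C3F1/J had a lowest, median and highest value of 8.57, 8.75 and 8.85 in CR mice and 8.29, 8.34 and 8.41 in control mice, and in C3H/HeJ 8.58, 8.70 and 8.78 in CR mice and 8.28, 8.42 and 8.58 in control mice. All 8 CR mice lay above all 8 control mice in both, by a margin in C3H/HeJ that vanishes at 2 decimals. In 129S1/SvImJ and C57BL/6J 7 of 8 CR mice lay above every control, in CBA/J 6, in DBA/2J 1 and in BALB/cJ 0. The BALB/cJ values were 8.44, 8.72 and 8.93 in CR mice and 8.32, 8.46 and 8.95 in control mice, so a single control mouse spanned the whole CR group. Gene by gene, CR and control mice did not overlap for 49 genes in B6C3F1/J (6.95% of all genes had every CR mouse higher), 19 in C3H/HeJ (1.85%), 14 in 129S1/SvImJ (3.42%), 6 in C57BL/6J (2.62%), 5 in CBA/J (1.39%), 2 in DBA/2J (0.0702%) and 0 in BALB/cJ (0.00502%).

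Several of these counts rested on few arrays. Without BALB/cJ control mouse 3 the count at an unadjusted p under 0.01 was 35 in place of 8. The count at an adjusted p under 0.05 was 1 (0.0251% of all genes higher), and the median change was 0.23 in place of 0.17. Leaving out any other single BALB/cJ mouse gave 3 to 14 genes at the unadjusted threshold. In DBA/2J the count at an adjusted p under 0.05 was 11 without control mouse 2, 8 without CR mouse 3 and 5 without control mouse 3, in place of 2, and the shares of all genes higher were 1.16%, 1.19% and 1.17% in place of 0.492%. It was 0 to 2 without any other single mouse. Without the 2 DBA/2J CR mice of raised testis signal it was 0, and the count at the unadjusted threshold was 8 in place of 18. In C57BL/6J the adjusted count was 61 in place of 44 without CR mouse 2 (14.2% of all genes higher), and in CBA/J it was 54 in place of 36 without CR mouse 5 (12.9%). Without the 8 epididymis arrays it was 56 in C57BL/6J, 43 in CBA/J and 1 in DBA/2J. Without the 3 arrays of raised brown adipocyte signal the counts at an adjusted p under 0.05 were 1 in BALB/cJ and 11 in DBA/2J, and at the unadjusted threshold 22 and 26. Shares of all genes were not counted without several arrays or, for single mice, at the unadjusted threshold. Whether other genes moved alike in those fits is not known. The brown adipocyte list averaged 8.18 in CR and 7.58 in control BALB/cJ mice, and 8.10 in CR and 6.95 in control B6C3F1/J mice. The macrophage list averaged 8.68 in CR and 8.71 in control BALB/cJ mice, 8.55 in CR and 9.06 in control DBA/2J mice, and 8.67 in CR and 10.24 in control B6C3F1/J mice. CBA/J, with a smaller family change than B6C3F1/J, had macrophage means of 8.29 in CR and 9.89 in control mice. The part of these markers in the strain order was not tested.

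A stricter view asks for the unadjusted p under 0.01 in at least 6 strains. Among the family 10 genes met it, against 1.41% of all genes: Mrpl2, Mrpl12, Mrpl16, Mrpl18, Mrpl27, Mrpl48, Mrpl50 and Mrpl55 of the large subunit, and Mrps15 and Mrps22 of the small subunit. The number was 18 without the 3 arrays of raised brown adipocyte signal and 5 without the 2 DBA/2J CR arrays of raised testis signal. Shares of all genes were not counted for these fits. Mrpl48 and Mrps15 met the threshold in all 7 strains (0.105% of all genes did). Mrpl48 in C57BL/6J ran 9.28, 9.44 and 9.53 (lowest, median and highest) in CR mice and 8.59, 8.80 and 8.93 in control mice, with no overlap, and in BALB/cJ 8.94, 9.52 and 9.62 in CR mice and 8.77, 9.08 and 9.53 in control mice, where 4 of 8 CR mice exceeded every control. Its change over strains was 0.40 ± 0.03 (SE, limma adjusted p = 8.63e-24). Mrps15 in 129S1/SvImJ ran 10.16, 10.39 and 10.55 in CR mice and 9.78, 9.96 and 10.05 in control mice, also with no overlap. In DBA/2J its values were 9.93, 10.21 and 10.32 in CR mice and 9.77, 9.85 and 9.97 in control mice, and Mrps15 was 1 of the 2 genes that passed there (change 0.30 ± 0.06, adjusted p = 0.0409). The other was Mrpl21, at 7.65, 7.77 and 7.87 in CR and 7.22, 7.47 and 7.65 in control DBA/2J mice. The estimate was above 0 in all 7 strains for 59 of the 77 genes (12.7% of all genes), in 6 strains for 11 and in fewer for 7.

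**Figure D3:**
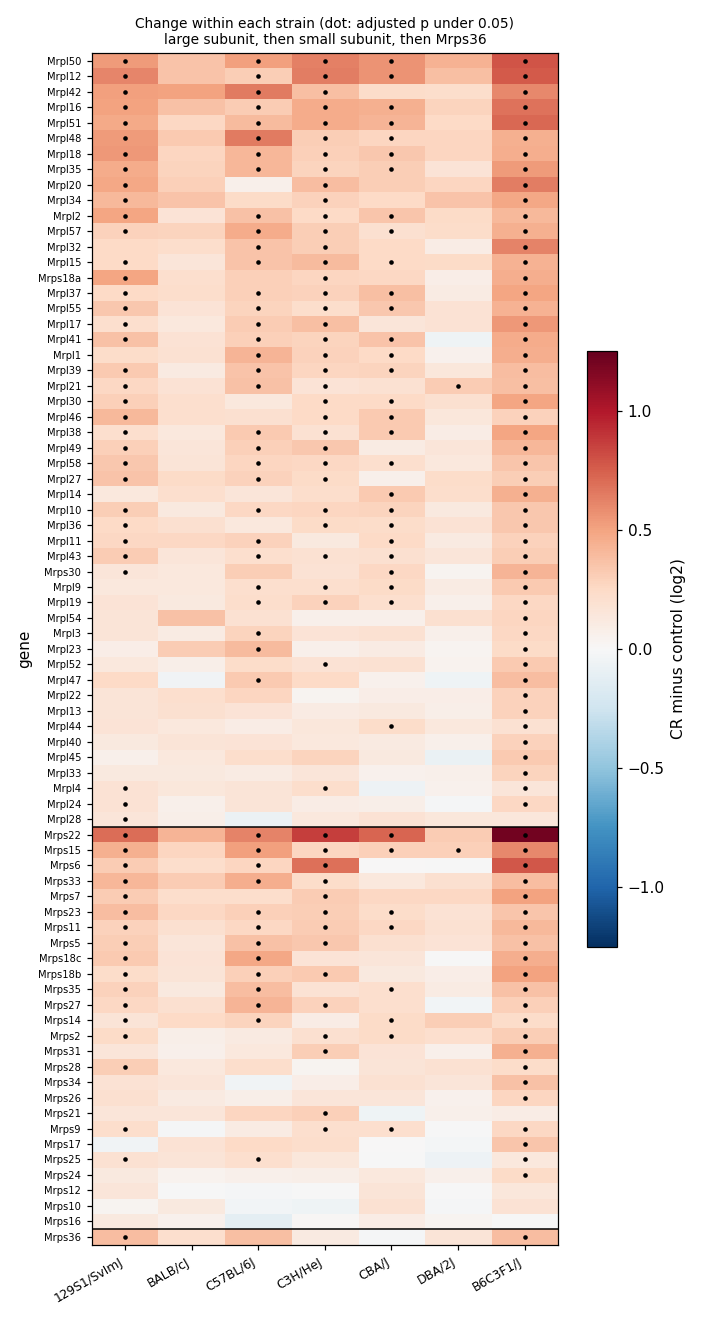
Colour gives the CR minus control difference (log2) of each gene, in rows, within each strain, in columns, and a dot marks an adjusted p under 0.05. Dots fill the B6C3F1/J column with 72 genes, 2 lie in the DBA/2J column and 0 in the BALB/cJ column.

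The large subunit was set against the small subunit by counts and medians, with no test. At an adjusted p under 0.05 the large subunit had 49 of 50 genes higher in B6C3F1/J (22 of 26 in the small subunit), 35 in C3H/HeJ (14), 31 in C57BL/6J (13), 28 in CBA/J (8), 34 in 129S1/SvImJ (17), 1 in DBA/2J (1) and 0 in BALB/cJ (0). The share called was larger in the large subunit in 5 strains, and in DBA/2J it was larger in the small subunit, also at an unadjusted p under 0.01 (11 of 50 large-subunit and 7 of 26 small-subunit genes). The median change of the large subunit exceeded that of the small subunit by 0.04 over strains and by 0.02 in 129S1/SvImJ, 0.03 in BALB/cJ, 0.04 in C57BL/6J, 0.04 in C3H/HeJ, 0.06 in CBA/J, 0.07 in DBA/2J and 0.05 in B6C3F1/J. The sign was the same in all strains. Taken within each mouse, the large minus small mean was also higher in CR mice of all 7 strains, by 0.02 in C3H/HeJ to 0.05 in CBA/J. Between mice of a group the SD of large minus small was 0.04, of like size to these differences. That SD is the spread of single mice, and means of 8 mice vary less. Over the 77 genes the change rose with mean signal (Spearman rho 0.28), and the part of signal in the subunit difference was not tested. Within single mice the large minus small mean in CBA/J ran 0.24, 0.32 and 0.39 in CR mice and 0.24, 0.26 and 0.31 in control mice, with 6 of 8 CR mice above every control, whereas in DBA/2J it ran 0.22, 0.25 and 0.27 in CR mice and 0.14, 0.20 and 0.30 in control mice, where the control group spanned the CR group.

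Whether the response differed between strains was tested with an F-test on the diet by strain terms. It passed an adjusted p under 0.05 for 18 of the 77 genes, 9 in each subunit counted, and for 19% of all genes. Mrps6 had the highest F of the family (14.8, adjusted p = 2.08e-09), followed by Mrpl41 (6.08), Mrpl17 (5.28) and Mrps18c (4.87). Mrps6 signals in B6C3F1/J ran 10.31, 10.64 and 10.77 (lowest, median and highest) in CR mice and 9.74, 9.83 and 9.95 in control mice. In C3H/HeJ, a parent of that hybrid, they ran 10.23, 10.44 and 10.63 in CR mice and 9.53, 9.78 and 9.94 in control mice. CR and control mice did not overlap in either strain, and the changes were 0.78 ± 0.06 and 0.69 ± 0.07 (SE). In C57BL/6J, the other parent, the change was 0.27 ± 0.08, and 4 of 8 CR mice exceeded every control. CBA/J mice ran 9.23, 9.57 and 9.78 on CR and 9.32, 9.51 and 9.82 on the control diet. Diets overlapped fully in this strain, and also in DBA/2J, where the lowest and median values were 9.50 and 9.72 in CR mice and 9.51 and 9.69 in control mice. Both estimates rounded to 0 (limma adjusted p = 0.997 in CBA/J and 0.995 in DBA/2J).

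The Mrps6 gene contains Slc5a3, which encodes a myo-inositol transporter, so the Mrps6 signal is uncertain. The probe set named Slc5a3 changed by 1.08 in B6C3F1/J, 1.11 in C3H/HeJ, 0.98 in C57BL/6J, 0.37 in 129S1/SvImJ, 0.35 in BALB/cJ, 0.32 in DBA/2J and 0.26 in CBA/J, with an F of 11.9 for the difference between strains (adjusted p = 9.38e-08). Both genes thus had their largest changes in B6C3F1/J and C3H/HeJ and small ones in CBA/J and DBA/2J, and in C57BL/6J Slc5a3 changed by more than Mrps6. Whether Mrps6 probes measured Slc5a3 RNA was not tested.

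**Figure D4:**
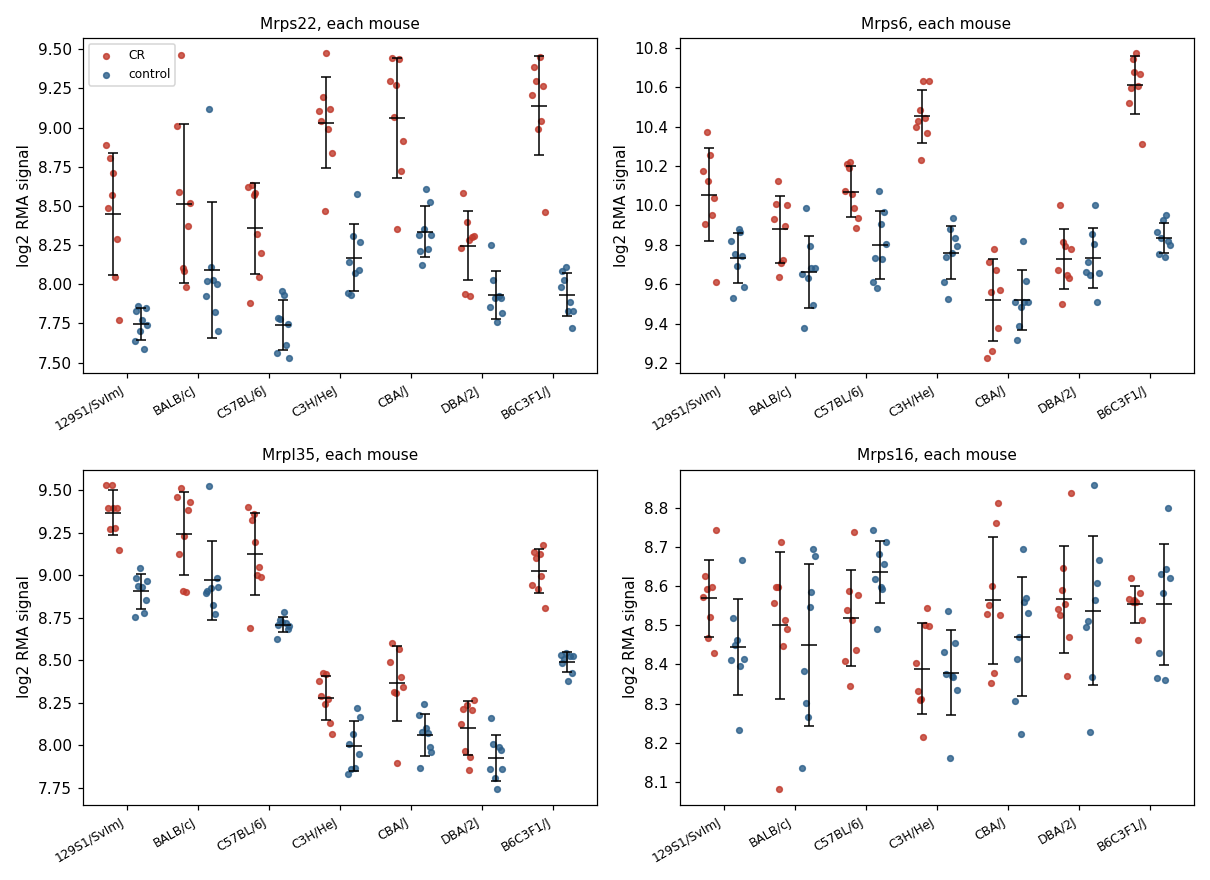
Log2 signals of single mice are plotted for Mrps22, Mrps6, Mrpl35 and Mrps16 in each strain, CR beside control, with the mean and SD of 8 mice. Mrps6 separates by diet in C3H/HeJ and B6C3F1/J and overlaps in CBA/J and DBA/2J, Mrpl35 differs between strains on both diets, and Mrps16 overlaps everywhere.

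Mrpl41 was higher in CR mice of 5 strains at an adjusted p under 0.05, and missed it in BALB/cJ and DBA/2J. Its signals ran 7.50, 7.73 and 7.85 in CR and 7.14, 7.26 and 7.39 in control B6C3F1/J mice, and 7.68, 7.82 and 7.98 in CR and 7.24, 7.48 and 7.60 in control CBA/J mice, with no overlap in either strain. In DBA/2J they ran 6.87, 7.21 and 7.32 in CR mice and 7.06, 7.17 and 7.47 in control mice (change -0.05 ± 0.07). Its BALB/cJ change was 0.18 ± 0.08. The second probe set of Mrpl41 gave a change of 0.15 over strains, against 0.27 on the set used. Mrps18c had changes of 0.48 in C57BL/6J, 0.46 in B6C3F1/J and -0.01 in DBA/2J, and Mrpl17 of 0.54 in B6C3F1/J and 0.13 in BALB/cJ. The lowest F values were those of Mrpl44 (0.37), with changes between 0.10 and 0.23, and Mrps23 (0.79), with changes between 0.18 and 0.38.

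BALB/cJ mice were set against the mean of the other 6 strains in the same model. After adjustment 0 of the 77 genes differed (3.25% of all genes did). An unadjusted p under 0.05 was met by 10, 9 of them with a smaller change in BALB/cJ, and the estimate was below 0 for 61. Shares of all genes were not counted for the unadjusted p or the sign. The median of the 77 differences was -0.08 and without BALB/cJ control mouse 3 it was -0.02, with 1 gene past the adjusted threshold. The smallest p was that of Mrps9, whose BALB/cJ signals ran 7.49, 7.58 and 7.75 in CR mice and 7.50, 7.56 and 7.81 in control mice, while in B6C3F1/J they ran 7.52, 7.62 and 7.69 in CR mice and 7.25, 7.36 and 7.51 in control mice. The difference between BALB/cJ and the other strains for Mrps9 was -0.18 ± 0.06 (SE, limma adjusted p = 0.0983). Mrpl54 went the other way, with a difference of 0.21 ± 0.08 (adjusted p = 0.148), and was the gene with the smallest p within BALB/cJ, at 9.09, 9.30 and 9.47 in CR mice and 8.72, 8.83 and 9.31 in control mice (change 0.37 ± 0.08, adjusted p = 0.425).

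On the control diet the strains themselves differed in most of these signals. The F-test over the 7 control groups passed for 63 of the 77 genes, and for 56.6% of all genes. Mrpl35 had the highest F of the family (60.0, adjusted p = 7.6e-29). Its control mice averaged 8.97 ± 0.23 in BALB/cJ, 8.91 ± 0.10 in 129S1/SvImJ, 8.71 ± 0.05 in C57BL/6J, 8.49 ± 0.06 in B6C3F1/J, 8.06 ± 0.12 in CBA/J, 8.00 ± 0.15 in C3H/HeJ and 7.93 ± 0.13 in DBA/2J (SD, n = 8 each). Neighbours at either end of this order differed by less than their spread, whereas the C57BL/6J and B6C3F1/J groups, at 8.63 to 8.79 and 8.38 to 8.54, did not overlap each other or the 3 low strains. The hybrid lay between its parent strains. Strain differences exceeded the diet difference for this gene. Mrpl35 ran 8.69, 9.12 and 9.40 in CR and 8.63, 8.71 and 8.79 in control C57BL/6J mice, and 8.07, 8.28 and 8.43 in CR and 7.83, 7.98 and 8.22 in control C3H/HeJ mice, so the CR mice of C3H/HeJ stayed below the controls of C57BL/6J. Mrpl14 (F 27.1), Mrps27 (21.7) and Mrpl38 (21.3) followed. Probe sequences were not used here, so a strain difference in RNA level and a base difference under a probe cannot be told apart.

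C57BL/6J and DBA/2J controls were compared directly because Mrps5 and related genes are known to vary in crosses of these strains. Of the 77 genes 23 differed (24.1% of all genes did), 5 of them higher in C57BL/6J. Mrpl20 was lower in C57BL/6J by 0.87 on the log2 scale, at 7.63, 7.89 and 8.27 in C57BL/6J controls and 8.46, 8.76 and 8.93 in DBA/2J controls, which did not overlap, and C57BL/6J was also the strain with the smallest Mrpl20 response to CR (0.06 ± 0.13 SE, against 0.64 ± 0.08 in B6C3F1/J). Mrpl20 was picked out after its values were seen. Mrpl35 was higher in C57BL/6J by 0.78 and Mrps27 lower, with a difference of -0.56. Mrps5 itself differed by -0.12 (adjusted p = 0.17).

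The rest of the mitochondrial translation apparatus was described from lists chosen by function, over the listed genes that had a probe set of their own. Of 4 mitochondrial ribosome proteins with other names, 4 were higher in CR mice over strains, among them Ptcd3 (0.41 ± 0.05 SE) and Dap3 (0.22 ± 0.03). Of 13 translation factors 12 were higher, led by the elongation factors Gfm1 (0.50 ± 0.04) and Tufm (0.44 ± 0.03), with Gfm2 (0.29 ± 0.03) and the ribosome rescue factor Mtres1 (0.44 ± 0.04). All 15 genes of mitochondrial transcription and RNA stability were higher, including Slirp (0.39 ± 0.03), its partner Lrpprc (0.32 ± 0.03) and the RNA polymerase Polrmt (0.19 ± 0.02). So were all 4 genes listed with insertion of the products into the inner membrane, a list not limited to proteins that do the inserting. They were Letm1 (0.44 ± 0.04), Cox18 (0.25 ± 0.02), Timm21 (0.20 ± 0.04) and Oxa1l (0.16 ± 0.02). Of 29 genes of ribosome assembly and RNA modification 20 were higher and 2 lower, with a median of 0.10. The pseudouridine synthases Rpusd3 (0.29 ± 0.02) and Rpusd4 (-0.13 ± 0.02) moved in opposite directions, and the other gene that fell was Mdn1 (-0.08 ± 0.02), best known for assembly of the cytosolic large subunit.

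Regulators of nuclear genes for mitochondria did not move one way. Of 12 listed, 5 were higher and 4 lower: the coactivator Ppargc1a (0.38 ± 0.06 SE), Ppargc1b (0.15 ± 0.04), the orphan receptors Esrra (0.25 ± 0.03) and Esrrg (0.18 ± 0.04) and the corepressor Nrip1 (0.18 ± 0.03) rose, and Myc (-0.43 ± 0.05), the coactivator Pprc1 (-0.28 ± 0.03), Sp1 (-0.15 ± 0.02) and Yy1 (-0.07 ± 0.02) fell. Nrf1 (-0.05 ± 0.02, adjusted p = 0.0538), Gabpa (0.01 ± 0.03) and Gabpb1 (-0.03 ± 0.02), which encode the factors for the NRF1 and ETS motifs above, did not pass.

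Families of like kind were taken for comparison. Of 43 complex I genes (symbols starting Nduf), which encode the respiratory complex with the most mitochondrially made subunits, 42 were higher over strains, with a median of 0.27. Of 55 cytosolic ribosome genes (Rpl or Rps followed by a digit), 13 were higher and 8 lower, with a median of 0.00468, beside 21.9% of all genes higher and 22% lower. Within strains, 0 of the cytosolic genes were higher and 10 lower in 129S1/SvImJ (16.8% and 15.4% of all genes), and 8 were higher and 6 lower in B6C3F1/J (17.8% and 16.4%). In C57BL/6J 2 were higher (9.39% of all genes), in C3H/HeJ 1 (8.75%), in CBA/J 1 (8.68%), and in BALB/cJ and DBA/2J 0 were called. Between pairs of strains the changes of the 77 genes correlated with a median Pearson r of 0.59 (0.35 to 0.85 over 21 pairs), beside a median of 0.57 over all genes, as a description across genes that share arrays within a strain.

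**Figure D5:**
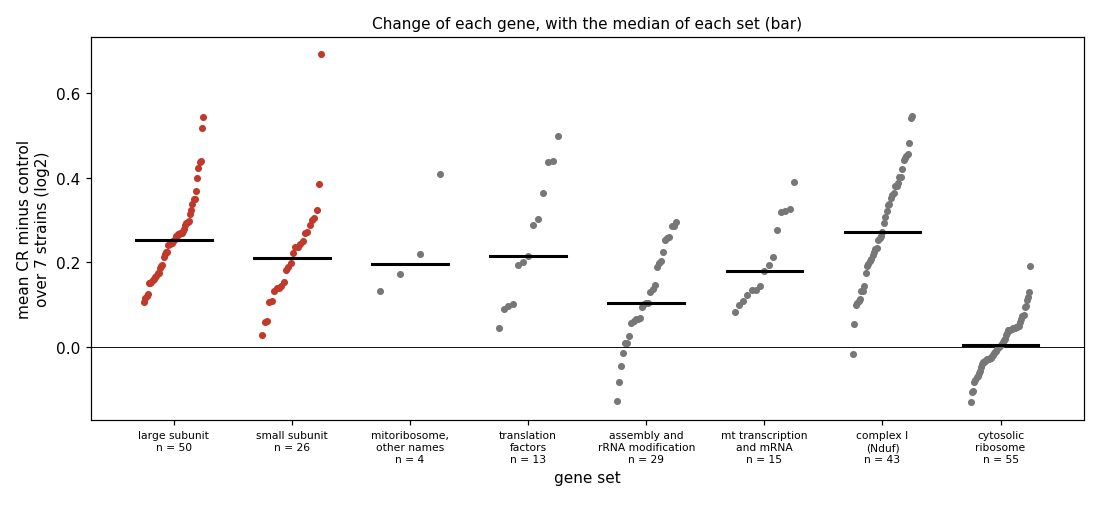
Each point is the mean CR minus control difference over 7 strains (log2) of 1 gene, grouped by family, and bars mark medians. The large subunit, the small subunit and complex I have medians of 0.25, 0.21 and 0.27, and the cytosolic ribosome lies around 0 with a median of 0.00468.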

How the data were processed

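Epididymal WAT of 112 mice was hybridised to 1 array per mouse. The authors deposited log2 gene-level values made with Affymetrix Expression Console and its RMA procedure (RMA-Sketch, per the study's methods), in which background is corrected, arrays are brought to a common distribution and probes are summarised per probe set. The software version and which arrays were normalised together are not given in the sources used here. The number of arrays, 8 per group, limits the precision. Groups were taken from the labels, and 0 columns belonged to unlisted samples.

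The platform annotation gave 1 gene symbol for 21789 of the 35556 probe sets and more than 1 for 1621, and did not list the other 12146. The probe set with the highest mean was kept for each gene. Values were used as deposited and tested with limma 3.58.1 in R 4.3.3, with Benjamini-Hochberg adjustment over all 19938 genes. One model with 14 group means gave the mean CR effect, the F-tests with 6 degrees of freedom and the strain contrasts, and each strain was also fitted alone. The fits were tested on simulated data first. Array correlations lay between 0.894 and 0.997, and 0 arrays were identical.

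Genes were named by rule: those past the unadjusted threshold in all strains, the 6 largest rises in each subunit, every gene not called or called lower, the 4 highest F values of each F-test, the 4 genes whose BALB/cJ response differed from the rest with the lowest p, the 2 genes of lowest p in each strain, and genes with a known role. The genes and lists were chosen with earlier results of these data known. Subunits follow the structure of the mammalian mitochondrial ribosome. Alternatives covered the filter on dim genes, normalisation, array weights, the choice of probe set, subunits by symbol, the replicate number as a block, a t-test on unlogged values as in the study's methods, and leaving out single mice or arrays with markers of other tissue. Plots were made in Python 3.11.15 (pandas 2.3.3, matplotlib 3.10.9).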

Additional observations from a re-analysis of the deposited data

Results flagged for a closer look

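The 14 groups of 8 mice were examined for a single mouse far from the rest, each on several genes and both subunit means. Of these 168 sets of 8 values, 18 held a mouse whose gap to its nearest neighbour, as a share of the set's range, exceeded Dixon's critical value at 95% confidence. Chance gives about 1 in 20 sets, or 8.4, if sets are independent. They share mice and genes, so the 2 counts cannot be compared strictly. BALB/cJ control mouse 3 accounted for 5 of the 18, always as the highest mouse, with shares of 0.682 for the large-subunit mean, 0.65 for the small-subunit mean, 0.712 for Mrps22, 0.651 for Mrpl12 and 0.718 for Mrpl35. C57BL/6J CR mouse 2 was the lowest of its group for the small-subunit mean (0.625) and Mrps15 (0.801), and it also had the highest epididymis marker signal. B6C3F1/J CR mouse 8 was the lowest for the large-subunit mean (0.553), the small-subunit mean (0.542) and Mrps22 (0.536), and CBA/J CR mouse 5 was the lowest for Mrps15 (0.708) and Mrpl35 (0.587). The remaining shares were 0.743 for Mrpl12 in C3H/HeJ CR mouse 4, 0.578 for Mrps16 in BALB/cJ CR mouse 4, 0.573 for Mrpl12 in 129S1/SvImJ control mouse 7, 0.609 for Mrps15 in C57BL/6J control mouse 5, 0.595 for Mrps12 in DBA/2J control mouse 5 and 0.533 for Mrps12 in CBA/J control mouse 1.

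The change on CR differed between strains for 18 genes by the limma F-test, and for 19% of all genes. The F values were 14.8 for Mrps6, 6.08 for Mrpl41, 5.28 for Mrpl17, 4.87 for Mrps18c, 4.83 for Mrpl38, 4.04 for Mrps22, 3.92 for Mrpl48, 3.8 for Mrps9 and 3.62 for Mrps18b. They were 3.61 for Mrps31, 3.36 for Mrps15, 3.31 for Mrpl23, 3.3 for both Mrpl49 and Mrpl2, 3.21 for Mrpl37, 3.12 for Mrps17, 3.06 for Mrps27 and 3.01 for Mrpl51.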

How the results depend on the processing

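The count of genes higher over strains lay between 72 and 76 under every alternative tried, and of 493 changes over strains of 38 named genes, 488 kept their direction and their side of the threshold, 5 newly passed and 0 reversed. Counts in DBA/2J and BALB/cJ moved most. At an adjusted p under 0.05 the DBA/2J count of 2 became 9 with a filter on dim genes, 5 with quantile normalisation, 0 with each array set to its median, 32 with array weights, 12 in 1 model of all arrays, 1 without the epididymis arrays and 0 with the methods' t-test, and the BALB/cJ count of 0 became 1 with array weights and 12 in 1 model. At an unadjusted p under 0.01 the BALB/cJ count of 8 became 31 with array weights, 31 in 1 model and 5 with the methods' t-test, and the DBA/2J count of 18 became 29 with quantile normalisation and 37 with array weights. Array weights also gave 58 genes in CBA/J at the adjusted and 57 at the unadjusted threshold, 35 genes in at least 6 strains (10 as reported, 23 in 1 model), 44 genes by the F-test between strains, 5 in BALB/cJ against the other strains, and a large minus small difference of 0.0738 in BALB/cJ (0.0334 as reported). BALB/cJ against the others gave 1 gene without the epididymis arrays, and the cytosolic ribosome had 8 genes higher with quantile normalisation in place of 13. Shares of all genes were not counted under these alternatives, so whether other genes moved alike is not known. The causes were not tested.

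Leaving out 1 mouse at a time gave 49 to 65 genes at the adjusted threshold in 129S1/SvImJ, 0 to 1 in BALB/cJ, 37 to 61 in C57BL/6J, 43 to 52 in C3H/HeJ, 28 to 54 in CBA/J, 0 to 11 in DBA/2J and 71 to 73 in B6C3F1/J. At the unadjusted threshold BALB/cJ ranged between 3 and 35 and DBA/2J between 12 and 27. Alternatives chosen after seeing the data left out BALB/cJ control mouse 3, which gave 1 gene in BALB/cJ against the other strains, or the 3 arrays of raised brown adipocyte signal, which gave 1 gene (22 at the unadjusted threshold) in BALB/cJ, 11 in DBA/2J and 18 in at least 6 strains. A further one left out the 2 DBA/2J CR mice of raised testis signal, which gave 0 genes (8 at the unadjusted threshold) in DBA/2J and 5 in at least 6 strains. Shares of all genes were not counted for these alternatives either.

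In no strain did every pair of mice with the same number correlate above 0.1, so the numbers were not taken to pair mice. Of 56 CR and control pairs with the same number, 18 had a correlation of deviations above 0.1 (range -0.36 to 0.55), 5 of 8 in C3H/HeJ (median 0.31), and 18 of 112 arrays correlated best with their own number, where random numbering would give 14. These checks look at single numbers. A difference between low and high numbers, as seen in Mrps16 controls of some strains, was not tested. With the replicate number as a block 74 genes were higher over strains, 20 passed the unadjusted threshold in BALB/cJ and 0 the adjusted one in DBA/2J. For the control groups, a block of the number across strains, also added after seeing the data, gave 65 genes in place of 63 by the F-test and 29 in place of 23 between C57BL/6J and DBA/2J.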
